A study of Mus musculus with 36 samples.

Results

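Ribosome footprints were compared 15 min after the end of a long and a short exposure to the same severe hyperosmotic stress. The long-stress group was kept at 700 mOsm for 2 h and then left to recover for 15 min, and the short-stress group was kept at 700 mOsm for 15 min and then left to recover for 15 min. Each group had 2 Ribo-seq libraries, which makes 4 of the 18 footprint libraries and of the 36 samples of the series. The libraries were chosen by their titles, and no measured value entered the choice. All samples were C57BL/6J mouse embryonic fibroblasts (MEFs), cells of the connective tissue taken from embryos. They grew in high-glucose medium with 10% serum, and the osmolarity was raised with sorbitol, a sugar alcohol. Each extract was made from 3 culture plates. The other footprint libraries came from unstressed cells, from cells at 500 or 600 mOsm for 2 h, from cells at 700 mOsm for 15 min or 2 h without recovery, and from cells 2 h into recovery. The labels do not say how the stress was ended, whether the cells were primary or an established line, or whether the 2 libraries of a group came from separate cultures.

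Sorbitol outside the cell draws water out of it, so that the cell shrinks and its contents become more concentrated. Severe shrinkage slows the start of translation and removes most mRNAs from the polysomes, the strings of ribosomes that read one mRNA. When the osmolarity returns to normal, cells swell back and ribosomes load onto mRNAs again. In Ribo-seq an RNase digests the mRNA that ribosomes do not cover, and the protected fragments are sequenced. The number of fragments on a coding sequence follows both how many copies of the mRNA there are and how densely ribosomes cover them, and footprints alone cannot tell these apart. Here the fragments came from the gradient fractions from the single-ribosome peak down, with cycloheximide, which holds ribosomes in place, in the lysis buffer.

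The long-stress libraries held 2500212 and 2372665 footprint reads on 9661 and 9616 listed transcripts, and the short-stress libraries held 3616708 and 3948180 on 9981 and 10028. Thinned to 2372665 reads, 9625 and 9613 transcripts had at least 5 reads in the long-stress libraries, and 9656 and 9696 in the short-stress libraries. The 10 highest transcripts made up 8.60% and 8.71% of the summed RPKM after the long stress, and 7.74% in each library after the short stress. The 2 libraries of a group differed by little more than sampling noise, with a chi-square statistic over its degrees of freedom of 1.065 for the long-stress pair and 1.014 for the short-stress pair, against 1 for sampling noise alone. They were averaged and counted as 1 sample. The comparison therefore sets 1 sample against 1, without a replicate check, an SD or a p-value, and "higher" and "lower" describe these libraries. Values are RPKM (reads relative to the coding length and to the total reads of the library), scaled so that the typical abundant transcript had the same value in every library. A change is the difference of log2(mean scaled RPKM + 1), long stress minus short stress. It says nothing about the total amount of translation, and it understates the change of transcripts with low values. The deposited lists give Ensembl transcript identifiers without gene names, and none of the identifiers was in the name tables used here. No gene, pathway or fibroblast marker could therefore be named or checked, and transcripts are described by their lengths and by their values across the conditions.

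Most transcripts had similar footprint levels at 15 min of recovery whether the stress had lasted 2 h or 15 min, and more of those that differed were lower after the long stress. Of 8849 transcripts that passed the filter on low values, 107 were at least 2-fold higher after the long stress (1.21%) and 300 at least 2-fold lower (3.39%). A further 7168 transcripts (81.0%) were within 1.5-fold. The median change was -0.07 with quartiles of -0.35 and 0.20, and the SD across transcripts was 0.50. At least 3-fold differences were counted for 28 higher and 65 lower transcripts, and at least 4-fold differences for 13 and 38. The transcripts nearest to the 2-fold limit stood at changes of 1.0039 inside and 0.999618 outside on the higher side, with sizes of 1.00208 and 0.999847 on the lower side.

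Both long-stress libraries lay above both short-stress libraries for 2622 transcripts (29.6%) and below both for 3707 (41.9%). The libraries did not overlap for 100 of the 107 higher and 287 of the 300 lower transcripts. These sets were chosen by the difference between the same libraries, so this largely follows from the choice and is no replicate check. Between the 2 long-stress libraries themselves 148 transcripts were at least 2-fold apart, with a difference SD of 0.38, and between the 2 short-stress libraries 60, with an SD of 0.26. Among the 7905 transcripts with at least 100 reads over the 4 libraries, 68 were higher (0.86%) and 214 lower (2.71%), while 18 were 2-fold apart within the long-stress pair and 6 within the short-stress pair. Some differences rest on listing. Of the 107 higher transcripts 12 were listed in neither short-stress library, and of the 300 lower ones 42 in neither long-stress library. Among transcripts listed in all 4 libraries 84 were higher and 224 lower. With a pseudocount of 5, which weighs down transcripts with low values, 47 were higher and 98 lower, and when no transcript was filtered out the counts were 165 and 433.

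**Figure D1:**
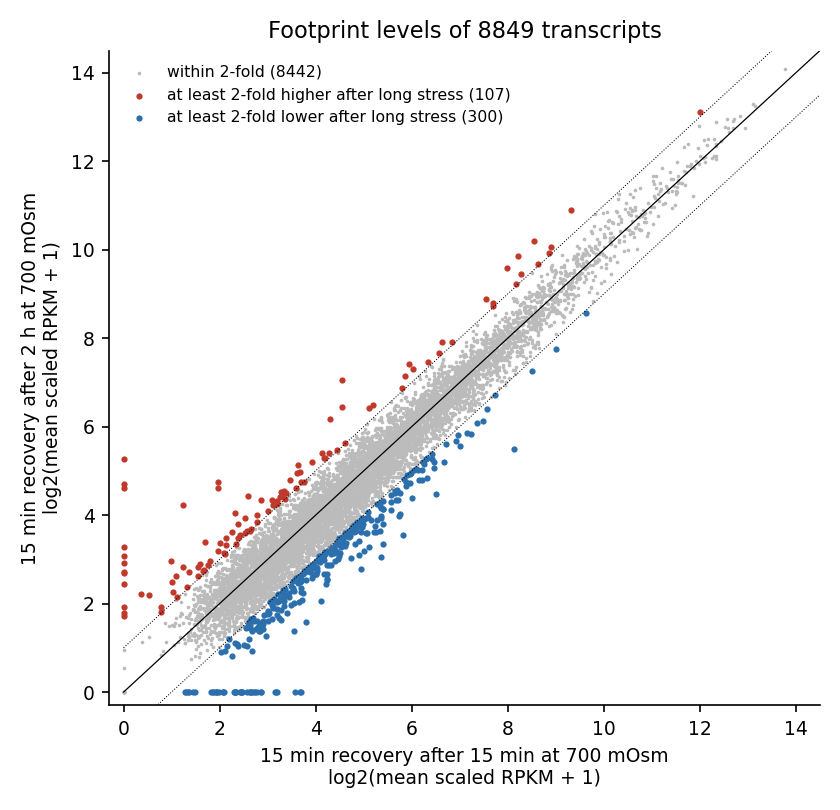
Mean scaled RPKM of each of the 8849 transcripts on a log2(value + 1) scale, 15 min after the long stress (vertical) against 15 min after the short stress (horizontal), with dotted lines at 2-fold. The cloud follows the diagonal; 107 transcripts (red) lie at least 2-fold above it and 300 (blue) at least 2-fold below, and points on an axis were not listed in either library of a group.

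Abundant transcripts were less often lower and more often within 1.5-fold, but not less often higher than all transcripts. Of the 100 transcripts with the highest footprint levels, 1 was at least 2-fold higher, 0 were lower and 86 were within 1.5-fold. Of the 1000 highest, 13 were higher, 3 were lower and 879 were within 1.5-fold. Over all transcripts 1.21% were higher, 3.39% lower and 81.0% within 1.5-fold. All transcripts were also divided into 4 equal groups by their level in unstressed cells, whose libraries are not among the 4. From the lowest to the highest level, these groups held 55, 28, 8 and 16 of the higher transcripts. They held 101, 95, 74 and 30 of the lower ones. The median change was -0.08, -0.09, -0.08 and -0.02 from the lowest to the highest group, so the medians were close while the number past 2-fold was larger at low levels. Counting noise is also larger at low levels.

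The change went down with the length of the coding sequence. In the shortest class, 180 transcripts of up to 100 codons, the median change was 0.24, and the medians were 0.06 for over 100 up to 200 codons, -0.03 for over 200 up to 400, -0.09 for over 400 up to 800 and -0.15 for over 800 up to 1600. In the longest class, 373 transcripts of over 1600 codons, it was -0.21. Of that longest class, 27.1% had a change above 0, against 65.6% of the shortest. Each of the 4 pairings of 1 long-stress with 1 short-stress library gave the same order of the 6 medians. Between the 2 libraries of a group the class medians were at most 0.0096 in size. The share at least 2-fold higher, 1.21% over all transcripts, was 4.44%, 2.65%, 1.59%, 0.695%, 0.144% and 1.07% from the shortest to the longest class. The share at least 2-fold lower, 3.39% over all transcripts, was 2.78%, 4.56%, 3.29%, 2.91%, 3.75% and 3.75% and did not follow coding length. Differences of 2-fold were few in every class, so the medians describe small shifts of many transcripts. The median of the shortest class rests on the filter on low values, since it was 0.02 without that filter. The class of over 200 up to 400 codons turned to 0.02 when the scaling was taken from the 4 libraries alone.

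The shares of reads gave the same order without any scaling between libraries. Transcripts with over 1600 codons took 3.98% and 4.01% of the listed reads after the long stress, against 4.60% and 4.60% after the short stress. In unstressed cells they took 4.01% in both libraries. Transcripts with over 800 up to 1600 codons took 12.6% and 12.7% after the long stress, against 13.8% and 13.9% after the short stress. Transcripts with over 100 up to 200 codons took 19.2% in both libraries after the long stress, against 17.7% in both after the short stress, and 17.4% in both from unstressed cells. Those with up to 100 codons took 3.85% and 3.88% after the long stress, against 3.23% and 3.25% after the short stress and 3.01% in both from unstressed cells. In the shortest 2 classes the long-stress libraries thus stood above both other groups, while in the longest class the short-stress libraries stood above both. The exact 95% binomial (Clopper-Pearson) interval of such a share in the 4 libraries was at most 0.119 percentage points wide, which covers counting error only.

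The change also went down with non-coding length, the length of a transcript outside its coding sequence. For up to 250 nt outside the coding sequence the median change of 708 transcripts was 0.09, and 23 were at least 2-fold higher and 17 lower. The medians were 0.07 for over 250 up to 500 nt, 0.01 for over 500 up to 1000, -0.10 for over 1000 up to 2000 and -0.21 for over 2000 up to 4000. For over 4000 nt the median of 562 transcripts was -0.35, and 4 were higher and 43 lower. A change above 0 was found in 19.9% of them. The order of the classes of up to 250 nt and of over 250 up to 500 nt was not stable. With the second long-stress library alone their medians were 0.064 and 0.077 against the first short-stress library, and 0.059 and 0.067 against the second. Without the filter on low values they were 0.015 and 0.036. The share at least 2-fold lower was 1.73% for over 250 up to 500 nt and 7.65% for over 4000 nt. In shares of reads, transcripts with over 2000 up to 4000 nt took 12.3% in both libraries after the long stress, against 14.4% in both after the short stress and 14.3% in both from unstressed cells. Transcripts with up to 250 nt took 15.8% in both libraries after the long stress, against 14.0% in both after the short stress and 13.6% in both from unstressed cells. In these 2 classes the short-stress libraries stood next to unstressed cells and the long-stress libraries stood apart.

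**Figure D2:**
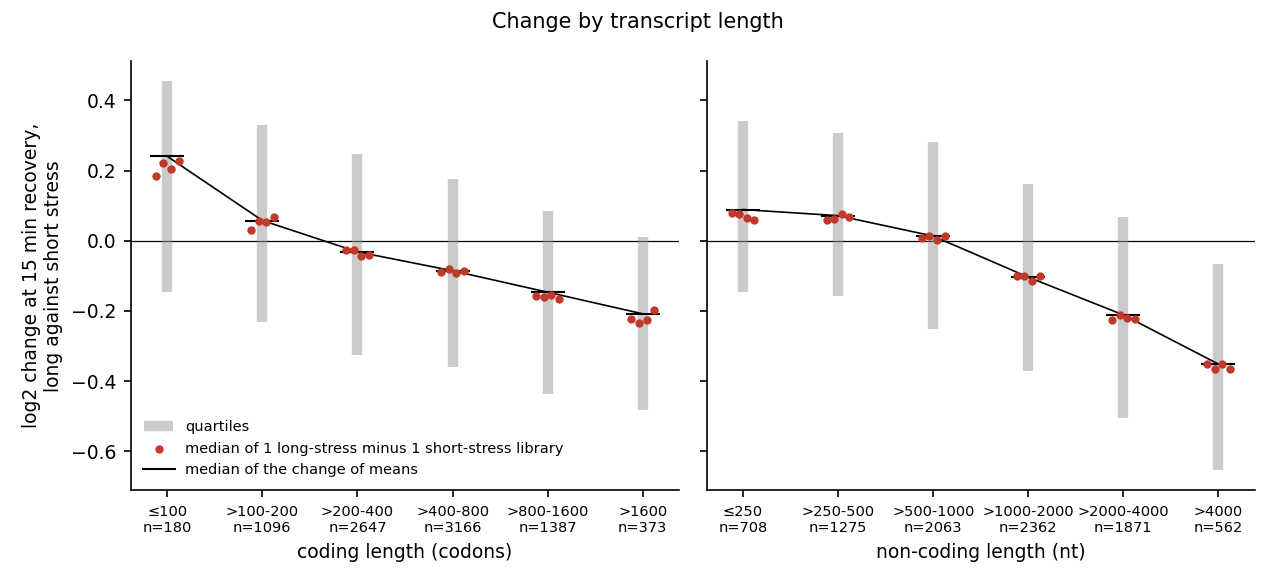
Median log2 change at 15 min of recovery, long against short stress, by coding length in codons (left) and non-coding length in nt (right), with grey bars for the quartiles, black marks for the median and red points for the median in each pairing of 1 long-stress with 1 short-stress library. The medians go down from 0.24 to -0.21 with coding length and from 0.09 to -0.35 with non-coding length, and the 4 pairings lie close together in every class.

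The order by non-coding length was also there at one coding length. Among transcripts with over 400 up to 800 codons, the medians from the shortest to the longest non-coding class were 0.09, 0.06, -0.01, -0.09, -0.22 and -0.37. Among transcripts with over 1000 up to 2000 nt of non-coding sequence, the medians by coding length were 0.08 (26 transcripts), -0.03, -0.07, -0.09, -0.16 and -0.31. The 107 higher transcripts had a median of 256 codons and 558 nt of non-coding sequence, and the 300 lower ones 416.5 codons and 2007 nt. All 8849 had a median of 441 codons and 1126 nt, with the non-coding length known for 8841.

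The difference between the recovery groups followed what the stress itself had done to a transcript's footprints. Transcripts were classed by their change at 700 mOsm for 2 h against unstressed cells, which shares no library with the 4. The 956 transcripts with a stress change of -3 or less had a median change of -0.27 at 15 min of recovery. Of them 75 were at least 2-fold lower (7.85%, against 3.39% of all) and 2 higher (0.209%, against 1.21% of all). The median was -0.26 for a stress change over -3 up to -2, -0.21 for over -2 up to -1, -0.11 for over -1 up to -0.5, 0.09 for over 0.5 up to 1, 0.22 for over 1 up to 2 and 0.41 for over 2 up to 3. It was 1.02 for the 37 transcripts with a stress change over 3, of which 19 were at least 2-fold higher (51.4%, against 1.21% of all). In the class within 0.5 of unstressed cells 49.7% of the 1733 transcripts had a change above 0. Transcripts whose footprints were low during the long stress were thus lower after it than after the short stress, and those whose footprints were high were higher. Across the 8849 transcripts Spearman's rho was 0.43, which describes transcripts and not replicates.

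The same order appeared at 600 mOsm for 2 h, with medians of -0.47 for a stress change of -3 or less and 0.30 for over 1 up to 2, and a rho of 0.42. It was flatter for 15 min at 700 mOsm, the stress that the short-stress group had gone through, with medians of -0.23 for a change of -3 or less and 0.12 for over 2 up to 3, and a rho of 0.26. The 32 transcripts with a change over 3 at that time had a median of -0.13. These comparisons share the unstressed libraries. Set against 15 min of the same osmolarity, without unstressed libraries, 2 h at 700 mOsm gave a rho of 0.19, with medians of -0.32 for a change of -3 or less, -0.05 within 0.5 and -0.02 over 3.

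**Figure D3:**
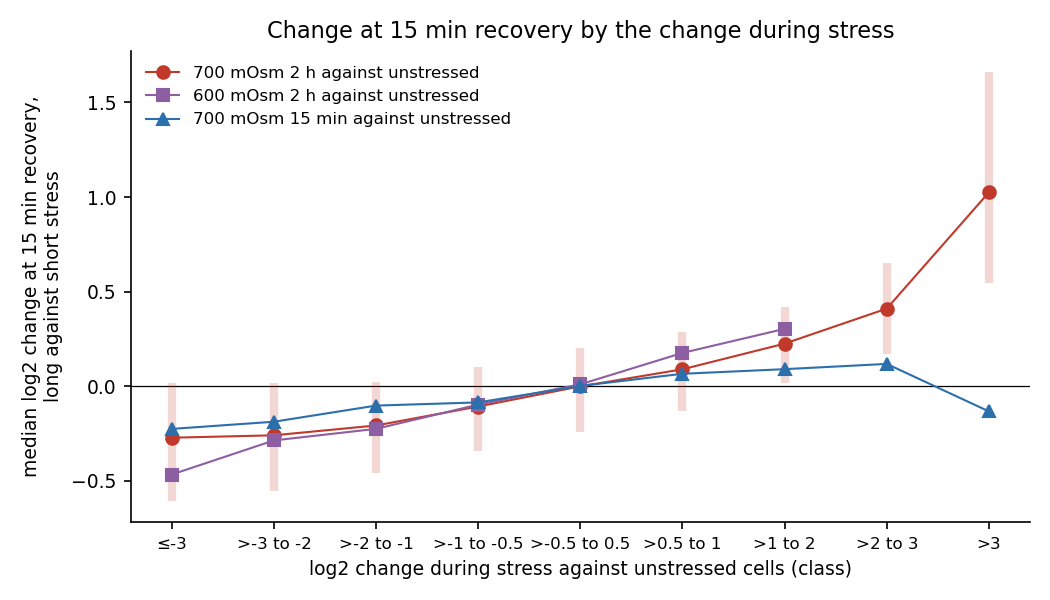
Median log2 change at 15 min of recovery, long against short stress, for transcripts classed by their log2 change during 3 stresses against unstressed cells (classes of at least 20 transcripts; pale bars are quartiles for 700 mOsm for 2 h). The medians go from -0.27 to 1.02 over the classes of 700 mOsm for 2 h (red), and over a narrower range for 700 mOsm for 15 min (blue).

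The order by stress change was also there within 1 class of both lengths. Among the 941 transcripts with over 400 up to 800 codons and over 1000 up to 2000 nt of non-coding sequence, the median was -0.32 for a change of -3 or less at 700 mOsm for 2 h, 0.15 for over 1 up to 2 and 0.50 for over 2 up to 3 (22 transcripts). Among transcripts within 0.5 of unstressed cells at 700 mOsm for 2 h, the medians by non-coding length were 0.05, 0.05, 0.03, -0.04, -0.10 and -0.16, an order of the same direction over a narrower range. By coding length the same transcripts had medians of -0.15 (18 transcripts), -0.01, 0.01, 0.02 and -0.02 up to 1600 codons, and -0.17 for the 112 with over 1600 codons. With the stress change held near 0, only the longest coding class and the smallest class stood away from the others.

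Many of the transcripts past 2-fold at 15 min of recovery had also been past 2-fold, in the same direction, during the stress. At 700 mOsm for 2 h, 69 of the 107 higher transcripts (64.5%) were at least 2-fold higher than in unstressed cells, against 16.6% of all 8849. Of the 300 lower transcripts, 237 (79.0%) were at least 2-fold lower, against 45.5% of all. Unlisted transcripts count as 0 here, and the median level of the 300 was 0 in 1 library at 700 mOsm for 2 h. In unstressed cells their median level was 14.3 scaled RPKM, against 22.9 for all transcripts. How much of the difference in shares rests on listing at low levels was not tested. At 600 mOsm, 195 of the 300 (65.0%) were at least 2-fold lower, against 35% of all, and 22 of the 107 (20.6%) at least 2-fold higher, against 3.77% of all. At 500 mOsm, 128 of the 300 (42.7%) were lower, against 16.6% of all, and 9 of the 107 (8.41%) higher, against 0.768% of all. After 15 min of 700 mOsm, 197 of the 300 (65.7%) were lower, against 46.9% of all, and 40 of the 107 (37.4%) higher, against 17.2% of all. Between 2 h and 15 min at 700 mOsm, 50 of the 107 (46.7%) were at least 2-fold higher, against 20.8% of all, and 5 were lower. For the 300, 74 (24.7%) were lower, against 15.1% of all, and 44 (14.7%) were higher.

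The levels of the 2 sets show where each group stood. The median level of the 300 lower transcripts was 6.15 and 6.08 scaled RPKM in the long-stress libraries, against 15.4 and 15.1 in the short-stress libraries. It was 14.4 and 14.2 in unstressed cells. During stress the median of the means was 6.67 scaled RPKM with 500 mOsm, 3.38 with 600 mOsm, and 3.68 after 15 min and 2.94 after 2 h of 700 mOsm. In the single libraries at 700 mOsm the median was 0 and 3.69 after 15 min, and 0 and 2.26 after 2 h, where 0 stands for an unlisted transcript. In these transcripts the median of the short-stress group lay near the unstressed level. That of the long-stress group lay below the unstressed level and that of 500 mOsm, and above that of 600 mOsm. It was also above the medians at 700 mOsm, but those rest in part on unlisted transcripts set to 0, so a lower level there is not shown. Single transcripts gave the same account: against unstressed cells, 22 of the 300 were within 1.5-fold after the long stress and 231 after the short stress. For all 8849 transcripts these numbers were 6728 and 8239.

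The 107 higher transcripts had a median level of 19.0 and 19.4 scaled RPKM in the long-stress libraries, against 6.20 and 6.08 in the short-stress libraries. It was 8.08 and 8.57 in unstressed cells. During stress the median of the means was 10.0 scaled RPKM with 500 mOsm, 11.9 with 600 mOsm, and 10.4 after 15 min and 26.1 after 2 h of 700 mOsm. The median of the long-stress group therefore lay between the unstressed level and that at the end of the long stress, and that of the short-stress group under the unstressed level. Against unstressed cells, 15 of the 107 were within 1.5-fold after the long stress and 56 after the short stress. The sets were chosen by the difference between these 2 recovery groups, so their levels in them are a description.

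**Figure D4:**
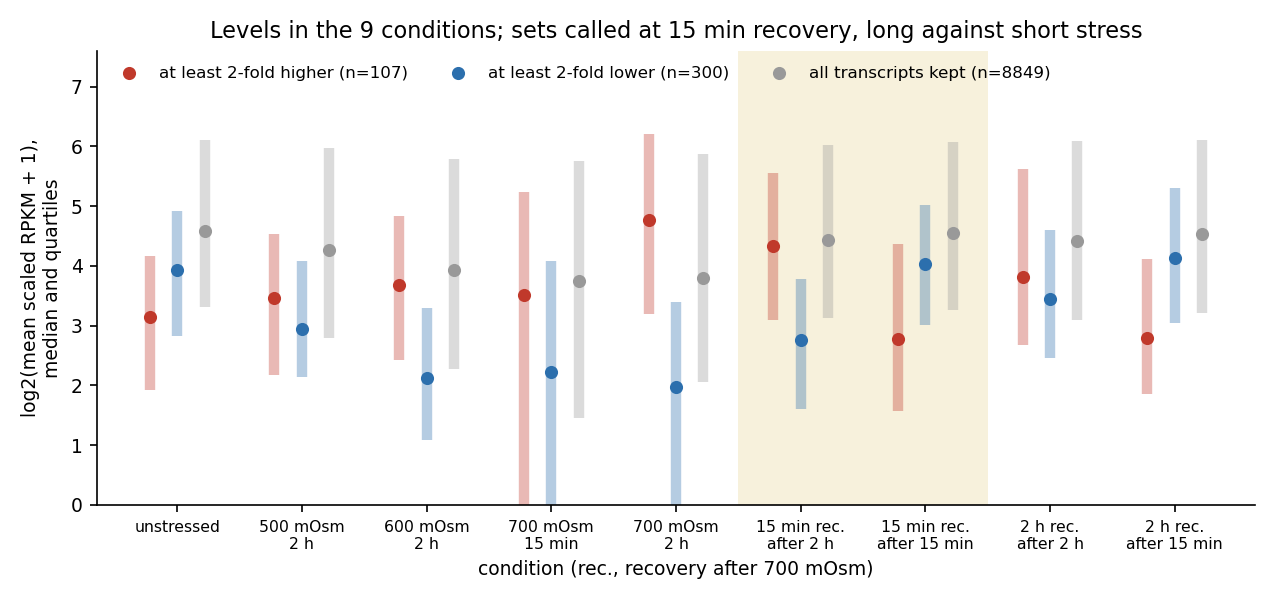
Median (points) and quartiles (bars) of the footprint level, as log2(mean scaled RPKM + 1), of the 107 transcripts higher (red) and 300 lower (blue) after the long stress and of all 8849 (grey), in the 9 conditions, with the compared groups shaded. The blue median is 5.80 scaled RPKM after the long stress and 15.3 after the short stress, against 14.3 in unstressed cells; the red median is 19.2 after the long stress, 5.88 after the short stress and 26.1 at 700 mOsm for 2 h.

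Part of the difference was still there 2 h into recovery, which was measured in 4 other libraries. At that time 344 transcripts were at least 2-fold higher after the long than after the short stress (3.89%) and 547 lower (6.18%), more than at 15 min. Of the 107 transcripts higher at 15 min, 35 were among the 344, which is 32.7% of the first and 10.2% of the second list. Of the 300 lower at 15 min, 114 were among the 547, or 38.0% and 20.8%. The change had the same sign at both times in 99 of the 107 and 235 of the 300. Over all 8849 transcripts the median change at 2 h was -0.09, with quartiles of -0.45 and 0.21. At 2 h of recovery 40 of the 107 and 96 of the 300 were within 1.5-fold. The median change of the 107 was 1.25 at 15 min and 0.79 at 2 h, and that of the 300 was -1.25 at 15 min and -0.80 at 2 h, where the values at 15 min are those by which the sets were chosen. Of the 300, the 38 with a change of -2 or less at 15 min had a median of -0.18 at 2 h, and 10 were then at least 2-fold lower. The other 262 had a median of -0.87 at 2 h, and 104 were at least 2-fold lower. Of the 300, 42 were listed in neither long-stress library at 15 min, so large changes there can rest on listing. How many of the 38 did was not counted, and these medians do not show that larger differences faded more. The opposite call at 2 h was made for 1 of the 107 (0.93%), against 6.18% of all transcripts called lower. It was made for 14 of the 300 (4.67%), against 3.89% of all called higher. In 11 of those 14, which were lower at 15 min and higher at 2 h, the libraries of the groups did not overlap at either time. The 14 were chosen by differences between these same libraries, so this largely follows from the choice and is no replicate check.

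Most calls at 2 h were not yet calls at 15 min, with 309 of the 344 and 433 of the 547. The median change at 15 min was 0.30 for the 344 and -0.60 for the 547. Across all 8849 transcripts Spearman's rho between the changes at the 2 times was 0.53. The median of the shortest coding class was 0.24 at 15 min and 0.08 at 2 h, and that of the longest -0.21 at 15 min and -0.26 at 2 h. For up to 250 nt of non-coding sequence it was 0.09 at 15 min and -0.00384 at 2 h, and for over 4000 nt -0.35 at 15 min and -0.30 at 2 h. During the stress itself the classes of coding length differed more. The longest class had a median of -2.23 at 700 mOsm for 2 h against 15 min, and the shortest one of 0.35.

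**Figure D5:**
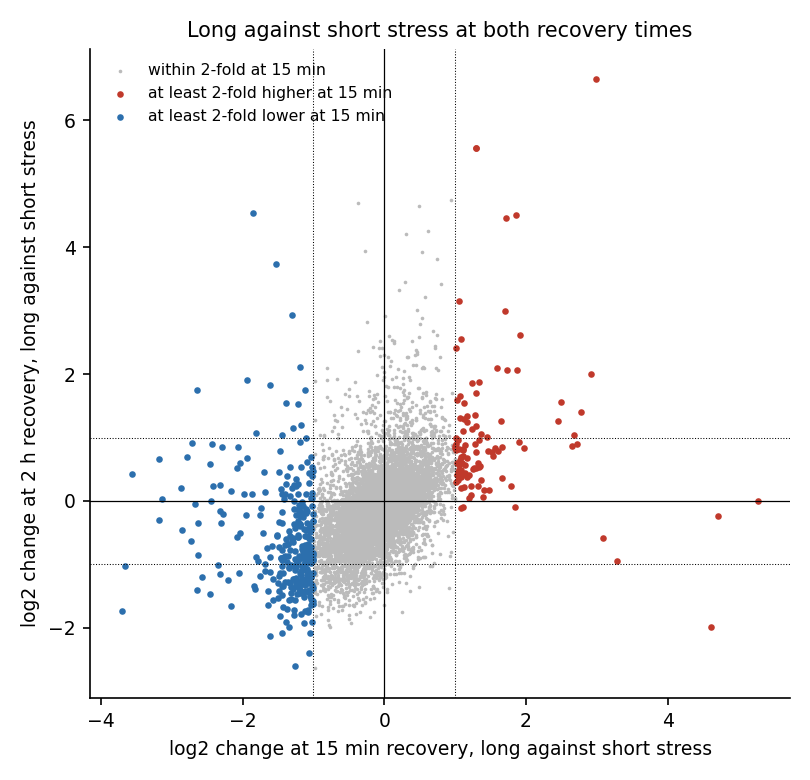
Log2 change of each of the 8849 transcripts, long against short stress, at 2 h of recovery (vertical) against 15 min of recovery (horizontal), with dotted lines at 2-fold; red and blue mark the 107 and 300 transcripts called at 15 min. Most red points lie above 0 at 2 h (99 of 107) and most blue points below 0 (235 of 300), with some blue points above 2-fold.

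Single transcripts were ranked by their change among those with at least 100 reads over the 4 libraries whose libraries did not overlap. The first on the higher side, ENSMUST00000052854 with 194 codons, had 38.3 and 37.1 scaled RPKM in the long-stress libraries, from 62 and 57 reads, and was not listed in either short-stress library. At 700 mOsm for 2 h one library had 307 scaled RPKM and the other did not list it, and it was not listed in any library of the other 6 conditions. The next, ENSMUST00000100635 with 311 codons, had 27.8 and 22.7 in the long-stress libraries and was not listed in either short-stress library. It had 38.7 and 22.7 at 700 mOsm for 2 h and 8.76 and 9.60 in unstressed cells. At 2 h of recovery it had 7.47 and 11.8 after the long stress, against 11.7 and 11.3 after the short stress, and the groups overlapped. A transcript can be missing from a list for more than low reads, since 1 with 159 reads in one long-stress library was not listed in the other, so the place of such a transcript in the ranking depends on the pseudocount and its change is not read as a fold.

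Among the 12 higher transcripts that were listed in all 4 libraries, the changes ran from 1.60 to 2.99, and 11 of them were also higher after the long stress at 2 h of recovery. The first, with 381 codons, had 16.1 and 19.6 scaled RPKM in the long-stress libraries, against 1.32 and 1.41 in the short-stress libraries. The ratio of the reads was 13.0, with an exact (Clopper-Pearson) 95% interval of 7.28 to 25.1 for counting error only, from 110 and 13 reads. It was not listed in any of the 4 libraries of the 700 mOsm stresses and had 1.23 and 0.966 in unstressed cells. At 2 h of recovery it had 218 and 215 after the long stress, against 0.762 and 1.56 after the short stress. Among the 700 mOsm conditions its listed values were thus high only in recovery from the long stress, and higher at 2 h than at 15 min. At 500 mOsm for 2 h it had a mean of 10.4.

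Others of the 12 were high at 700 mOsm for 2 h and lower at 2 h of recovery from it. A transcript of 131 codons had 1208 and 1157 scaled RPKM in the long-stress libraries, against 374 and 373 in the short-stress libraries, a ratio of 3.17 (2.96 to 3.40). It had a mean of 767 at 700 mOsm for 2 h and 75.3 in unstressed cells, so the long-stress level at 15 min of recovery was above that of the stress. At 2 h of recovery it had 177 after the long stress, against 98.2 after the short stress. A transcript of 137 codons had 900 and 950 in the long-stress libraries, against 282 and 309 in the short-stress libraries, and 2040 at 700 mOsm for 2 h, against 754 at 700 mOsm for 15 min and 81.5 in unstressed cells. One of 319 codons with 0 nt of non-coding sequence had 809 and 737 in the long-stress libraries, against 251 and 257 in the short-stress libraries, which was close to the 250 of unstressed cells. All 3 had ratios near 3 from 1011 reads or more in each group.

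On the lower side the first 2 places depend on the pseudocount. With a pseudocount of 1 the ranking began with ENSMUST00000099362, of 863 codons, and with a pseudocount of 5 its change of -1.04 was smaller in size than the -2.54 of ENSMUST00000031324. ENSMUST00000099362 was not listed in either long-stress library and had 5.55 and 4.98 scaled RPKM in the short-stress libraries, from 57 and 56 reads. It had 43.1 and 39.8 at 700 mOsm for 2 h and 4.24 and 3.93 in unstressed cells. At 2 h of recovery it had 6.65 and 4.96 after the long stress, against 0.967 and 1.09 after the short stress, the opposite direction. ENSMUST00000031324, with 163 codons and 3639 nt of non-coding sequence, had 41.9 and 46.5 in the long-stress libraries, against 278 and 283 in the short-stress libraries. Its ratio was 0.16 (0.13 to 0.19), from 117 and 1139 reads. It had 98.4 and 109 in unstressed cells and 564 at 500 mOsm for 2 h. In recovery from the short stress it was thus above unstressed cells, and 15 min after the long stress below them. At 2 h of recovery it had 154 after the long stress, against 410 after the short stress.

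The 12 lower transcripts that were listed in all 4 libraries had changes from -2.64 to -1.71, and all 12 were also lower after the long stress at 2 h of recovery, 5 of them at least 2-fold. Their median non-coding length was 3023 nt, against 449.5 nt for the 12 higher ones. The longest, with 5657 codons, had 11.1 and 10.3 scaled RPKM in the long-stress libraries, against 54.9 and 56.4 in the short-stress libraries, a ratio of 0.19 (0.18 to 0.21) from 986 and 7851 reads. It had 17.6 and 16.1 in unstressed cells, which lay between both groups, and at 2 h of recovery 28.1 after the long stress, against 32.7 after the short stress. A transcript of 665 codons had 4.69 and 7.03 in the long-stress libraries, against 30.5 and 28.9 in the short-stress libraries. It was not listed in any of the 4 libraries at 700 mOsm without recovery and had a mean of 12.0 in unstressed cells. One of 204 codons had 6.46 and 8.05 in the long-stress libraries, against 40.8 and 39.2 in the short-stress libraries, and 15.1 in unstressed cells. In these 3 transcripts and in ENSMUST00000031324 the short-stress group stood above the unstressed level and the long-stress group below it.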

How the data were processed

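The deposited footprint values are RPKM per transcript and the deposited RNA values are FPKM, per the file names. cutadapt, Bowtie, STAR and the build GRCm38 are named without versions or roles, per the submitters' processing notes; annotation and counting rules: not given in the sources used here. RNA levels were not analysed here, and the FPKM values served only to recover transcript lengths. Whole reads, library totals and coding lengths were solved from the steps of the RPKM values, and 100% of the reads were whole within a relative tolerance of 1e-09, largely by construction. Footprint lists rarely hold transcripts under 5 reads; an unlisted transcript was set to 0 and is not necessarily without reads.

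The 18 footprint libraries were scaled by the median ratio to the geometric mean over 4619 transcripts above 0 in all of them with a mean of at least 10. Of 11037 transcripts, the 8849 whose scaled values averaged at least 2 were kept. The 2 libraries of each compared group were averaged as 1 sample, since their chi-square per degree of freedom (over transcripts with 40 or more reads in a pair) was under the limit of 1.1. It was over the limit in 3 stress pairs, with 1.114 for 600 mOsm, 1.212 for 15 min and 1.327 for 2 h of 700 mOsm, and 1.042 to 1.085 there among transcripts listed in both libraries; these pairs were averaged too and serve only as descriptions. A call is a change of at least 2-fold with a pseudocount of 1. Named transcripts are the first 2 of each ranking among those with at least 100 reads over the 4 libraries and no overlap between groups; others are described by length and were chosen after their values were seen. A planned set of 33 gene lists and cell type markers could not be applied, as 0 identifiers were in the name tables. The members, classes and lists were chosen with earlier results of these data known. Python 3.11.15, numpy 2.4.6, pandas 2.3.3, scipy 1.17.1, R 4.3.3 and limma 3.58.1 (alternative only) were used, and the steps were tested on simulated data.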

Additional observations from a re-analysis of the deposited data

Results flagged for a closer look

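In the class of over 500 up to 1000 nt of non-coding sequence, the median change, long against short stress, was 0.0136 at 15 min of recovery and -0.0577 at 2 h of recovery, and every pairing of libraries had the sign of its time; the difference between the times was not tested, and at 15 min it was 0 with no filter. ENSMUST00000099362 had a change of -2.65 at 15 min of recovery, where it was not listed in either long-stress library so that the value depends on the pseudocount and is no fold, and of 1.75 at 2 h of recovery, with no overlap of the libraries at either time. That difference was not tested either.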

How the results depend on the processing

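The alternatives changed 135 of 400 recomputed values beyond the spread between libraries or 1.5 times a count, and none of the called changes of named transcripts turned round. With a pseudocount of 5, 47 transcripts were higher and 98 lower, against 107 and 300 with a pseudocount of 1. The overlap with 2 h of recovery was then 14 higher and 32 lower, against 35 and 114, the pairs were 2-fold apart in 40 (long) and 15 (short) transcripts, against 148 and 60, and the 3 longest coding classes had medians of -0.0655, -0.10 and -0.12. With no filter 165 transcripts were higher, the pairs were 2-fold apart in 414 (long) and 228 (short), and the 6 coding classes had medians of 0.0206, 0.0052, -0.0042, -0.0619, -0.13 and -0.17. Scaling over the 4 libraries alone moved the 6 medians to 0.29, 0.11, 0.0186, -0.0359, -0.10 and -0.17, which turned the sign of the third. The RPKM as deposited gave 0.0741, -0.0162, -0.0708 and -0.13 for the second to the fifth class, and a pseudocount of 0.25 gave -0.16 and -0.25 for the fifth and the sixth. With at least 100 reads in place of the filter on low values, 69 were higher, 22 of them also at 2 h, the pairs were 2-fold apart in 18 (long) and 6 (short), and the fourth class was at -0.0915. Among transcripts listed in all 4 libraries the pairs were 2-fold apart in 40 (long) and 16 (short), and the second class was at 0.0805. The last setting, and the mean of log2 values, were chosen after seeing the data. The cause of these shifts was not tested. In all, 6 recomputed class medians changed sign or became 0, in the classes of over 200 up to 400 codons, of over 500 up to 1000 nt of non-coding sequence and within 0.5 of unstressed cells at 700 mOsm for 2 h. Leaving out 1 library at a time gave 120 to 135 higher and 311 to 386 lower transcripts, 33 to 39 and 113 to 123 of them also called at 2 h, and medians from the shortest to the longest coding class of 0.22 to 0.26, 0.05 to 0.07, -0.04 to -0.02, -0.0944 to -0.0788, -0.16 to -0.15 and -0.22 to -0.20.

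Counting the libraries as n = 2 each, limma (adjusted p under 0.05, changes of any size) called 999 higher and 1332 lower, and 982 and 1305 with the replicate number as a block. These counts have no 2-fold limit and are not comparable with the counts of 2-fold changes. The correlation of same-numbered deviations was 0.022. As the libraries of a group differed by little more than sampling noise, this cannot tell whether replicate numbers pair the samples. The gene list alternatives were not run. Depth limits single transcripts: a ratio from under 100 reads has a wide interval.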
